A study of Mus musculus with 12 samples.

Results

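Homeobox genes encode transcription factors that bind DNA through the homeodomain, and 95 of the 18193 genes measured on the arrays were taken by symbol as members of the families described here. The rule itself uses gene names alone, but it was written with earlier results of these data known. It took the Hox clusters (33 genes), Meis, Pbx and Pknox (8 genes), Dlx, Msx, Nkx, Gsx and Cdx (26 genes), Gsc, Otx, Pitx and Crxos (6 genes), Lhx (8 genes), Six2 to Six6 (5 genes), Irx (6 genes) and Zfhx (3 genes). The 95 genes were covered by 153 probe sets that name no other gene. Where several probe sets measure a gene, the brightest on average in that comparison stands for it.

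The study lowered or deleted Sephs1, which encodes selenophosphate synthetase 1 (SPS1), a relative of the enzyme that makes selenophosphate for selenoprotein synthesis. Affymetrix 3' expression arrays were run on 12 samples, 3 in each of 4 groups. The first comparison set F9 cells labelled shSPS1, which carry a short hairpin RNA against the gene, against F9 cells labelled control. F9 is a mouse embryonal carcinoma line, male and of strain 129, from a testicular teratoma. The second comparison set livers of male C57BL/6 mice aged 3 months, with a hepatocyte-specific SPS1 knockout, against control livers of the same sex, strain and age. The albumin promoter (Alb-Cre) drives the recombinase in the knockout, which is aimed at hepatocytes. Deletion in other cells of the liver was not measured. The labels name neither the construct in the F9 control cells nor the genotype of the control livers. They call the samples biological replicates, but do not say whether the F9 samples came from separate cultures, so the p-values for F9 measure the spread between these samples, which may be technical.

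Hox genes lie in clusters and give body regions their identity along the head-to-tail axis. Meis, Pbx and Pknox proteins belong to the TALE class of homeodomain proteins and bind DNA together with Hox proteins and with each other. Most of the other families pattern particular tissues of the embryo, such as the forebrain, gut or limbs. In embryonal carcinoma cells many of these genes are quiet until the cells differentiate, and retinoic acid is a classical inducer of both differentiation and Hox expression.

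All values are deposited log2 signals. F9 and liver values come from separately normalized tables, so their levels are not set against each other, while the differences within each tissue are. Sephs1 itself was 7.79, 7.84 and 7.77 in the shSPS1 cells, against 10.04, 10.03 and 9.94 in control cells, a log2 difference of -2.20 (SE 0.07, limma adjusted p = 1.28e-05). In the livers labelled knockout it was 9.89, 10.05 and 10.15, against 9.85, 9.74 and 9.93 in control livers, a log2 difference of 0.19 (SE 0.14, adjusted p = 0.789). All 4 Sephs1 probe sets fell in F9 cells, by -2.20 to -0.93 (limma adjusted p at most 0.00305 over all probe sets). In knockout livers all 4 were higher, by 0.19 to 0.47 (lowest adjusted p 0.81). The array did not show the labelled deletion, and whether the Sephs1 probes lie in the deleted part is not known, so each liver direction below rests on the labels. Correlations between arrays of 1 group were 0.996 to 0.999 in F9 and 0.946 to 0.953 in liver. The mean of the poly-A spike controls ran from 5.89 to 6.91 on the shSPS1 arrays, against 7.11 to 7.58 on the F9 control arrays, and that of the hybridisation controls from 12.6 to 12.7 on the knockout liver arrays, against 11.8 to 12.2 on the control liver arrays. The difference between the 3' and 5' probe sets of actin, which depends on RNA integrity and labelling, was 0.946 to 1.19 on shSPS1 arrays, against 1.30 to 1.34 on F9 control arrays, and 1.28 to 1.42 on knockout liver arrays, against 1.08 to 1.22 on control liver arrays. For Gapdh it was -0.198 to -0.0373 on shSPS1 arrays, against -0.0091 to 0.0505 on F9 control arrays. None of these values overlapped between the groups compared, and their part in the results was not tested. Pluripotency markers averaged 12.01 to 12.09 in shSPS1 cells and 11.84 to 12.01 in F9 control cells, and hepatocyte markers averaged 15.29 to 15.35 in knockout livers and 14.79 to 15.10 in control livers, so each source carried the markers of its labelled cell type.

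In F9 cells, 5 of the 95 homeobox genes changed on knockdown of SPS1, at a limma adjusted p under 0.05 over all genes. Meis2, Zfhx3 and Gsx2 rose by 4.36-fold, 2.49-fold and 2.32-fold. Crxos and Nkx6-3 fell, by 4.28-fold and 3.24-fold. They come from 5 different families, and each changed by more than 2-fold. The share called was 5.26% of members, against 7.2% of all genes tested (1310 of 18193, 2.56% higher and 4.64% lower). Which share is larger depends on the setting. With the same 5 members called, the share of all genes was 2.88% without shSPS1 replicate 2, 3.66% without shSPS1 replicate 3, 3.85% without control replicate 3, 4.04% without control replicate 2 and 2.67% at an adjusted p under 0.01. Without shSPS1 replicate 1 it was 4.68%, with 6 members called. With the replicate number as a block, the share of all genes was 3.64%, with 5 members called. Without the dimmest 50% of genes it was 21.4%, against 33.3% of the 12 members kept. In the remaining settings the members' share was the smaller, as in the main fit. It was 8.42% against 12.6% of all genes with array weights, and 6.32% against 10.5% with an intensity trend and a robust prior. At an adjusted p under 0.1 it was 7.37% against 11%, and after quantile normalization 7.37% against 7.94%. Without control replicate 1 it was 5.26% against 7.98%. More than 2-fold changes that passed the test made up 0.517% of all genes (94 genes), a smaller share than the 5 of 95 members. That is a description with no test. The member rule was written with earlier results of these data known, so the larger share cannot be read as a result about these families. The split of 3 higher and 2 lower became 3 higher and 4 lower after quantile normalization of the arrays, which added Lhx3 and Cdx1.

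**Figure D1:**
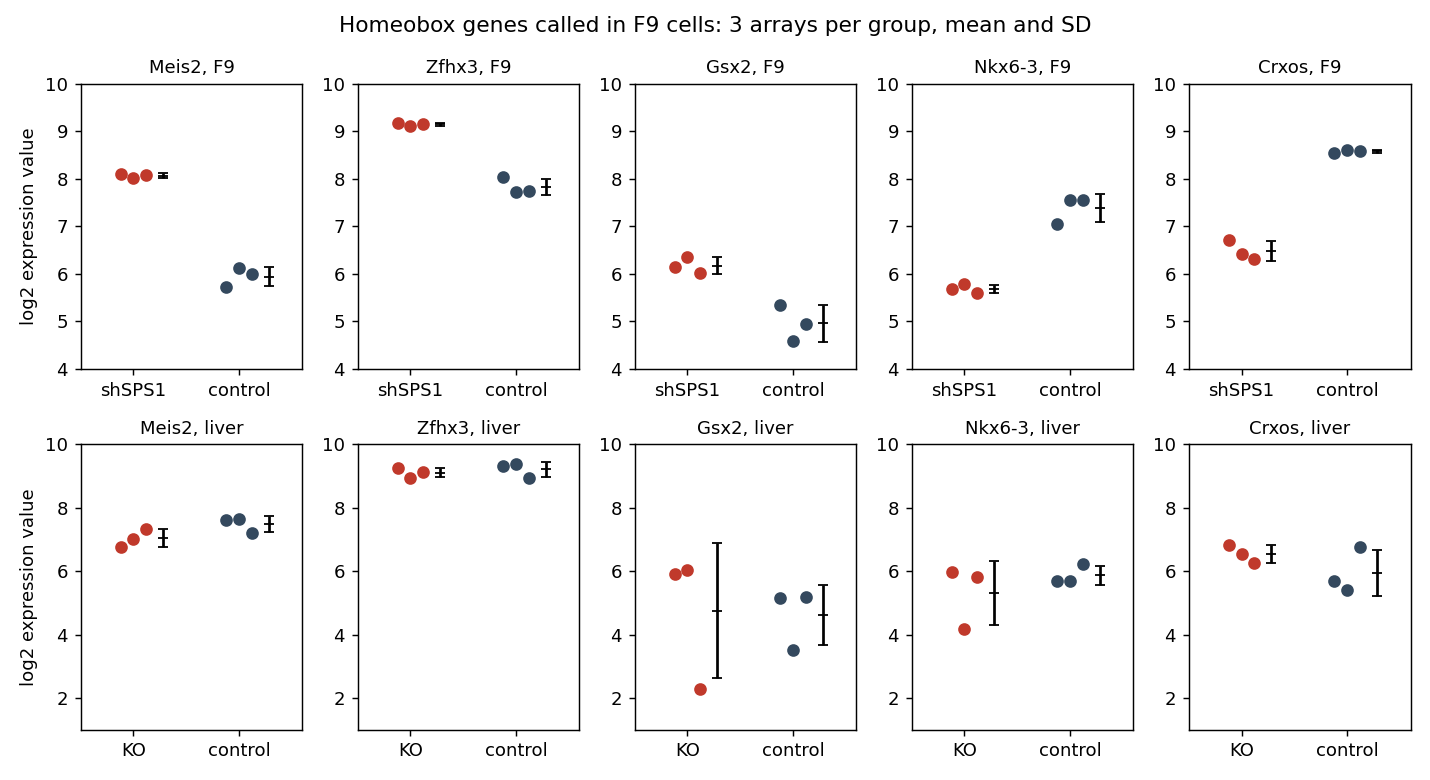
Log2 signal of the 5 homeobox genes that changed in F9 cells, with each array as a point, shown for shSPS1 and control F9 cells and for knockout and control livers; bars give the mean and SD. The F9 groups are apart for every gene, while the liver groups overlap for all 5 on the probe set brightest in liver, which for Meis2 and Crxos is not the one of the F9 panel, and the tables were normalized separately.

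Meis2, a TALE-class partner of Pbx and Hox proteins, showed the largest rise among the members. Its signal was 8.11, 8.02 and 8.08 in shSPS1 cells, against 5.72, 6.12 and 5.99 in control cells. The 3 shSPS1 arrays lay close together and more than 1 log2 unit above every control array. The mean was 8.07 ± 0.05 in shSPS1 cells and 5.94 ± 0.20 in control cells (SD, n = 3 each), and the difference was 2.12 (SE 0.10, 95% interval 1.88 to 2.36, limma adjusted p = 7.46e-05). All 4 probe sets of Meis2 rose, by 2.12, 2.11, 1.51 and 1.27. Probe sets of a gene are read from the same arrays and are not replicates.

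Zfhx3, a large transcription factor with several homeodomains and many zinc fingers, had 9.18, 9.11 and 9.14 in shSPS1 cells, against 8.03, 7.72 and 7.75 in control cells. The groups did not overlap, and the shSPS1 values varied least. The mean was 9.14 ± 0.03 in shSPS1 cells and 7.83 ± 0.17 in control cells (SD, n = 3 each), a difference of 1.31 (SE 0.09, 95% interval 1.10 to 1.53, limma adjusted p = 0.000284). All 6 of its probe sets rose, by between 0.56 and 1.55.

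Gsx2, a ParaHox gene that patterns the ventral forebrain, had 6.14, 6.36 and 6.02 in shSPS1 cells, against 5.35, 4.58 and 4.94 in control cells. The control values were spread over a wider range than the shSPS1 values but stayed below them. Its difference was 1.22 (SE 0.18, 95% interval 0.80 to 1.63, limma adjusted p = 0.00698), and it has 1 probe set. Gsx1, the other Gsx gene, differed by 0.14 and was not called.

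Crxos, which lies on the strand opposite Crx and encodes a homeodomain protein known from early mouse embryos and embryonic stem cells, had the largest fall. Its signal was 6.72, 6.41 and 6.32 in shSPS1 cells, against 8.55, 8.61 and 8.58 in control cells. Every shSPS1 array was well below the 3 tightly grouped control arrays. The mean was 6.48 ± 0.21 in shSPS1 cells and 8.58 ± 0.03 in control cells (SD, n = 3 each), a difference of -2.10 (SE 0.11, 95% interval -2.34 to -1.85, limma adjusted p = 8.38e-05). Its second probe set was dim, with means of 4.41 in shSPS1 cells and 4.42 in control cells, and differed by -0.01, so the fall was seen on 1 of 2 probe sets. The neighbour on the other strand, Crx, a photoreceptor regulator, averaged 4.54 in shSPS1 cells and 4.29 in control cells and was not called (0.25, adjusted p = 0.237).

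Nkx6-3, an NK-type gene of the stomach and hindbrain, had 5.67, 5.78 and 5.60 in shSPS1 cells, against 7.05, 7.54 and 7.55 in control cells. The groups were more than 1 log2 unit apart at their nearest arrays. The difference was -1.69 (SE 0.14, 95% interval -2.01 to -1.38, limma adjusted p = 0.000516), read from 1 probe set. Across the 153 member probe sets, 13 were called in F9 cells, and all 13 belong to these 5 genes. In the whole table, 1600 of 34945 probe sets were called.

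**Figure D2:**
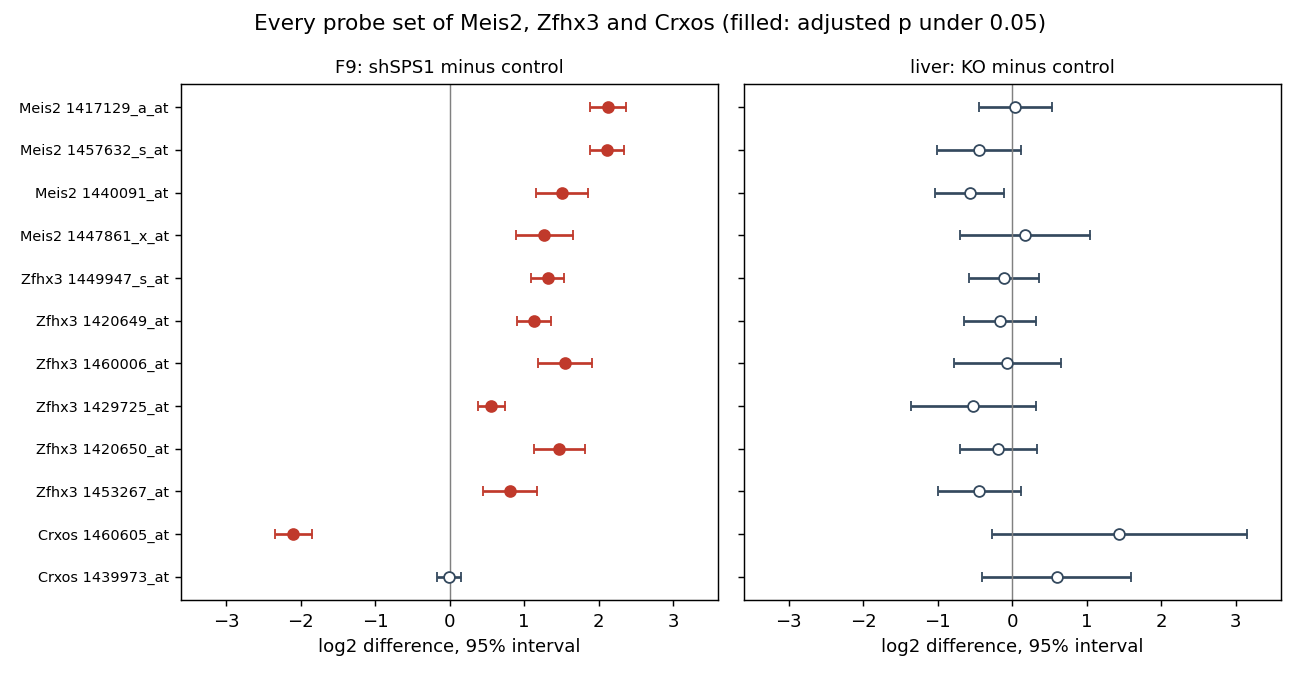
Log2 differences with 95% intervals for every probe set of Meis2, Zfhx3 and Crxos, in F9 cells (left, shSPS1 minus control) and in liver (right, knockout minus control); filled points passed the test over all probe sets. In F9 cells all 4 probe sets of Meis2 and all 6 of Zfhx3 lie above 0, while the 2 of Crxos lie at -2.10 and -0.01; no liver point is filled.

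The sequence before the transcription start is shown for the called genes with an entry in RefSeq's promoter set, since these are the members whose level changed. Each holds the 250 bases upstream of the start on the gene's own strand, in GRCm38.p6 coordinates, with every CpG in capitals. Meis2 lies on the minus strand at chr2:116064620-116064869, Zfhx3 on the plus strand at chr8:108714394-108714643, Gsx2 on the plus strand at chr5:75075351-75075600 and Crxos on the plus strand at chr7:15882367-15882616.
Meis2: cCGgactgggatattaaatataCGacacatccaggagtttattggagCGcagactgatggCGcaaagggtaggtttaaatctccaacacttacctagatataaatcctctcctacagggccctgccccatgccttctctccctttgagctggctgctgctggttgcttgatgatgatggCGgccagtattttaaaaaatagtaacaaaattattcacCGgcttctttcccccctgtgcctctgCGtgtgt
Zfhx3: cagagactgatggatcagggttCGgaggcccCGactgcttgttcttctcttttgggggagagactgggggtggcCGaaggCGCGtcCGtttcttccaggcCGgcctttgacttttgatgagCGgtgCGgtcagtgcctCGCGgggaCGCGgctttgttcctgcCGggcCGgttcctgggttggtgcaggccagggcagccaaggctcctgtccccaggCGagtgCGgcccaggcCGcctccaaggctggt
Gsx2: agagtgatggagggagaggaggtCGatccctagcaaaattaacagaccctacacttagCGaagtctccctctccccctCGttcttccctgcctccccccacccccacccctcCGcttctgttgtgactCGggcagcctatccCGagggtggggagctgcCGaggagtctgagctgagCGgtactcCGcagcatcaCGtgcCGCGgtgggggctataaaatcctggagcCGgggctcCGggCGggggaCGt
Crxos: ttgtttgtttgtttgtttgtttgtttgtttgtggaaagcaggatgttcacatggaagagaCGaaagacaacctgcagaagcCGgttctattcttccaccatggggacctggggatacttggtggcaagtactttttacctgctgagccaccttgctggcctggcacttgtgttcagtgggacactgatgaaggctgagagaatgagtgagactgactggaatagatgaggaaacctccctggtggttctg

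The genes that rose had 7 CpGs (Meis2), 18 (Zfhx3) and 16 (Gsx2) in this window, and Crxos, which fell, had 2. Of the 32851 RefSeq mouse promoters of the same length, 53.7%, 78.3% and 74.6% held fewer CpGs than those of Meis2, Zfhx3 and Gsx2, and 18.8% fewer than Crxos. RefSeq lists 2 other starts of Crxos, with 3 and 0 CpGs. Over 76 promoters of 64 members the median was 14 CpGs, against 6 over all promoters. GGGCGG, the GC box bound by Sp factors, was found on either strand in 50% of member promoters and 32.7% of all promoters, and CCAAT in 43.4% of member promoters and 33.8% of all. TATAAA was found in 10.5% of member promoters and 12.4% of all, and stood in the Meis2 and Gsx2 windows. The Meis and Pknox half-site TGACAG was in 13.2% of member promoters and 15.9% of all, and the homeodomain core TAATTA in 6.6% of member promoters and 4.8% of all. Neither of these was in the 4 windows printed, which says only that these letters are not there. With 1 called gene in each of several families, these counts describe the windows and were not tested.

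Of the Meis, Pbx and Pknox genes, Meis2 was called and the other 7 were not. Pbx2, a PBC-class partner of Meis proteins, had 9.02, 9.10 and 9.03 in shSPS1 cells, against 9.06, 9.13 and 9.08 in control cells. Pbx3, of the same class, had 9.45, 9.46 and 9.43 in shSPS1 cells, against 9.35, 9.43 and 9.41 in control cells. Their differences were -0.04 (95% interval -0.19 to 0.11) and 0.05 (-0.10 to 0.19), so any change of these partners was well under 1 log2 unit. Meis1, the closest relative of Meis2, had 4.98, 5.01 and 4.83 in shSPS1 cells, against 5.14, 4.99 and 4.71 in control cells. It differed by -0.01 (95% interval -0.27 to 0.26), and its 3 probe sets by -0.01, 0.17 and 0.41. On those at 0.17 and 0.41 the shSPS1 arrays lay above the control arrays. Neither was called (limma adjusted p = 0.359 and 0.0742 over all probe sets). Meis3 differed by 0.13 (-0.16 to 0.42), Pknox1 by 0.11 (-0.17 to 0.40), Pknox2 by 0.14 (-0.04 to 0.31) and Pbx4 by -0.20 (-0.45 to 0.04). No test compared Meis2 with its relatives.

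None of the 33 Hox genes was called in F9 cells by limma, and 2 had an unadjusted p under 0.05. Their differences ran from -0.39 for Hoxc6 to 0.21 for Hoxd3, with 17 above 0, 16 below and a median of 0.02, beside a median of -0.01 over all genes. The 95% interval of each of the 33 lay within 1 log2 unit of 0. Hoxc6 had 5.49, 5.38 and 5.09 in shSPS1 cells, against 6.01, 5.48 and 5.64 in control cells, and the groups overlapped (adjusted p = 0.188). Hoxd3 had 3.86, 3.92 and 3.78 in shSPS1 cells, against 3.57, 3.74 and 3.62 in control cells, with the shSPS1 arrays above the control arrays (adjusted p = 0.146). Hoxa genes ranged from -0.10 to 0.10, Hoxb genes from -0.07 to 0.14, Hoxc genes from -0.39 to 0.13 and Hoxd genes from -0.04 to 0.21. No cluster showed a gene near a 2-fold change.

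**Figure D3:**
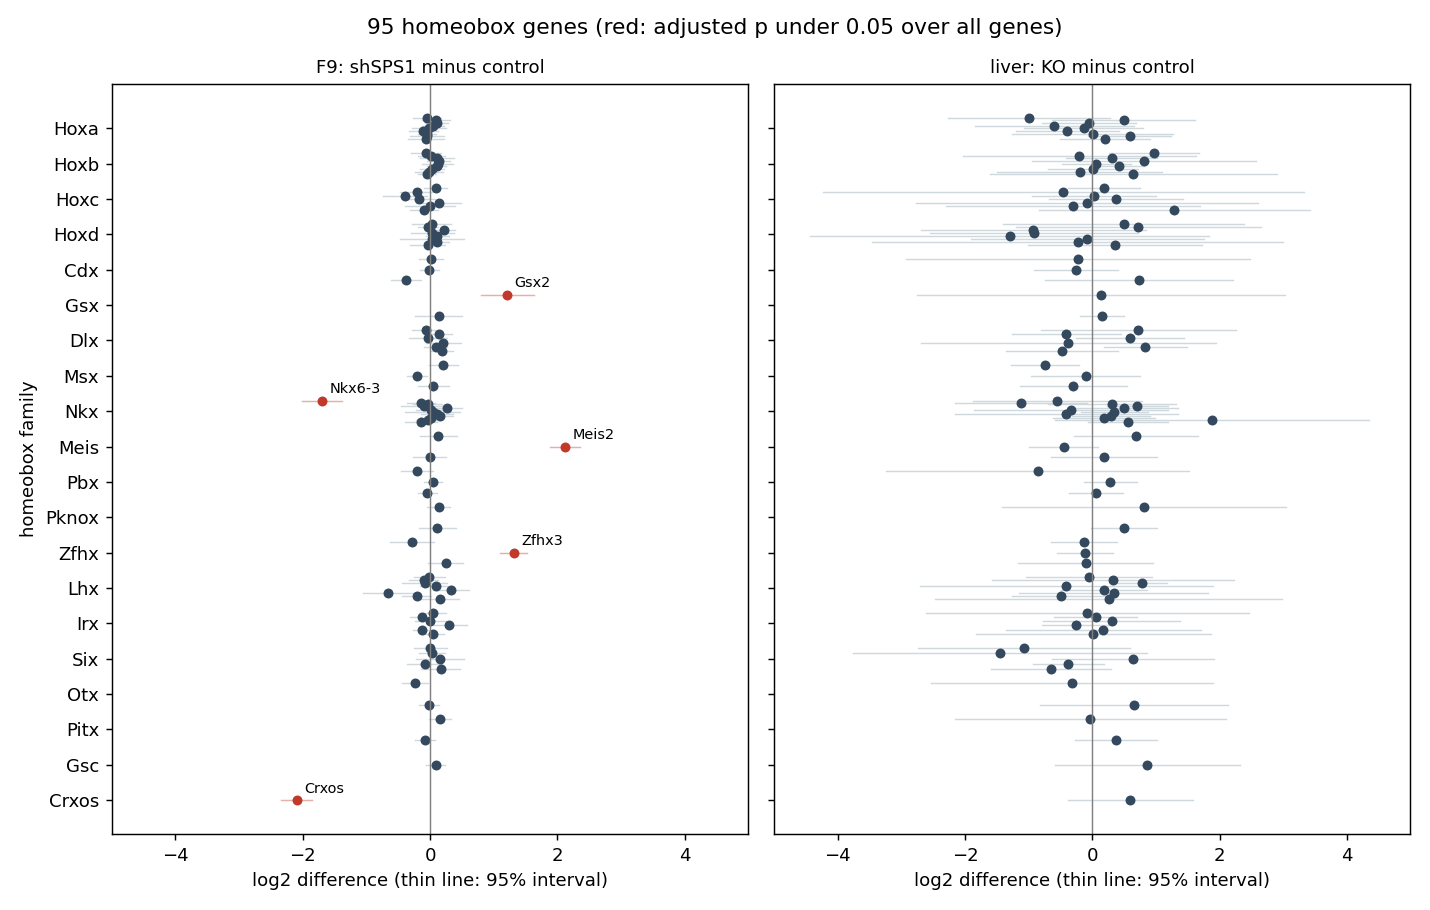
Log2 differences of every member by family, in F9 cells (shSPS1 minus control) and in liver (knockout minus control), with called genes marked. In F9 cells the 33 Hox genes lie between -0.39 and 0.21 and 5 members of other families stand away from 0, while the liver differences spread from -1.45 to 1.88 with none called.

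Among the 26 Dlx, Msx, Nkx, Gsx and Cdx genes, 1 rose (Gsx2) and 1 fell (Nkx6-3). Cdx1, a caudal-type gene of the gut and posterior body, came next, with 5.87, 5.55 and 5.53 in shSPS1 cells, against 5.98, 6.09 and 6.01 in control cells. It differed by -0.38 (SE 0.10, adjusted p = 0.0682) and passed the threshold without shSPS1 replicate 1 (-0.49, adjusted p = 0.0197). Msx2 differed by -0.21 (adjusted p = 0.137) and Nkx2-9 by 0.27 (adjusted p = 0.181), each with groups that did not overlap. The 6 Dlx genes, which pattern the forebrain and branchial arches, ran from -0.06 to 0.20, and none was called by limma, with 1 at an unadjusted p under 0.05. Of the 12 Nkx genes, those other than Nkx6-3 ran from -0.14 to 0.27. Its relatives Nkx6-1 and Nkx6-2 differed by -0.03 and -0.14, and Cdx2 and Cdx4 by -0.01 and 0.01.

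None of the 8 Lhx genes was called by limma, and 2 had an unadjusted p under 0.05. Lhx3, a LIM-homeodomain regulator of the pituitary and motor neurons, had 5.01, 4.59 and 5.12 in shSPS1 cells, against 5.88, 5.47 and 5.36 in control cells. Its difference of -0.67 (95% interval -1.06 to -0.27, adjusted p = 0.0582) was the nearest to the threshold, while its second probe set differed by 0.25. Otx2, a forebrain and epiblast regulator, had 4.98, 4.67 and 4.88 in shSPS1 cells, against 5.06, 5.04 and 5.14 in control cells, and differed by -0.24 (adjusted p = 0.185). Irx3 differed by 0.30 (adjusted p = 0.216), and none of the 6 Irx genes was called, with 1 at an unadjusted p under 0.05 and the 5 besides Irx3 between -0.12 and 0.04. Six2, Six3, Six4, Six5 and Six6 were not called either, and 0 of them had an unadjusted p under 0.05. Six4, a regulator of muscle and sensory development, had 8.57, 8.47 and 8.47 in shSPS1 cells, against 7.93, 8.53 and 8.60 in control cells. The first control array lay below the rest, and the difference of 0.15 (95% interval -0.22 to 0.53) was within that spread. Its other 3 probe sets differed by 0.13, 0.18 and 0.48, and on the last the groups did not overlap (limma adjusted p = 0.0644 over all probe sets). Zfhx2 and Zfhx4, the relatives of Zfhx3, differed by 0.24 and -0.29 and were not called.

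Smaller differences were counted too. The F9 groups did not overlap for 18 of 95 members, or 18.9%, with shSPS1 above for 9 and below for 9, against 27.9% of all genes. An unadjusted p under 0.05 was found for 15 members, against 20.9% of all genes. A 95% interval within 1 log2 unit of 0 was found for 89 of the 95 members, against 98.7% of all genes, and the other 6 were the 5 called genes and Lhx3. Most members were dim, with 12 in the brighter 50% of genes and 56 above the dimmest 25%.

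The 84 other homeobox genes on the arrays, which the naming rule did not take, had 1 gene that rose and 5 that fell in F9 cells, or 7.14%, near the 7.2% of all genes. Zhx1, a zinc-finger homeobox gene, rose by 0.93 (limma adjusted p = 0.00154). En2, a midbrain and hindbrain patterning gene, fell by 1.34 (adjusted p = 0.00306), and Rhox5, an X-linked reproductive homeobox gene, fell by 1.03 (adjusted p = 0.000169). Satb1, a chromatin organizer, fell by 0.55, Gbx2 by 0.44 and Mkx by 0.40. Of 18 retinoid signalling genes, Stra8, a retinoic acid target of the germ line, fell by 0.78 (adjusted p = 0.000765) and no other was called (5.56%). The retinoid list averaged 5.89 to 5.92 in shSPS1 cells and 6.03 to 6.06 in control cells, with 13 genes below 0 and 5 above. The groups did not overlap for 5 of its genes (27.8%, against 27.9% of all genes), each with shSPS1 below. Of 35 Polycomb and Trithorax genes, whose proteins keep Hox clusters silent or active, Cbx2 fell by 0.50 and Pcgf5 by 0.34 (5.71%). The median difference was -0.01 for the other homeobox genes, -0.13 for the retinoid list and -0.0021 for the Polycomb and Trithorax list, beside -0.01 over all genes.

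Markers of other cell types were measured in F9 cells beside these genes. Of 12 parietal endoderm markers, Krt8 (-1.18), Krt18 (-0.97) and Lamb1 (-0.35) fell and Vim (0.34) rose, and the list averaged 7.27 to 7.30 in shSPS1 cells and 7.42 to 7.52 in control cells. Of 14 primitive and visceral endoderm markers, Sox7 rose by 0.71, and the list averaged 5.36 to 5.41 in shSPS1 cells and 5.31 to 5.37 in control cells. Of 9 neural markers, Sox1 rose by 0.83, and the list averaged 5.80 to 5.82 in shSPS1 cells and 5.69 to 5.83 in control cells. For the visceral endoderm and neural lists the array means overlapped between the groups. Markers of stellate cells and portal fibroblasts averaged 4.64 to 4.72 in shSPS1 cells and 4.79 to 4.86 in control cells, with no overlap. Of these 14, 1 was called lower (Thy1, -1.41), 6 lay above 0 and 8 below, and the median was -0.07. The trophoblast, mesoderm and Kupffer cell lists each had 1 gene called higher, and the sinusoidal endothelial list had 1 called lower. In those lists the array means overlapped between the groups. Of 12 pluripotency markers, Esrrb rose by 0.63. In bulk samples, fewer cells of a type and less RNA per cell cannot be told apart, and the part of these markers in the homeobox results was not tested.

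In liver, none of the 95 homeobox genes was called after hepatocyte-specific knockout of SPS1. The share called over all genes was 0.044% (8 of 18193), with 0.011% higher and 0.033% lower, and 7 members had an unadjusted p under 0.05 in limma, beside 7.28% of all genes. The groups did not overlap for 10 members, or 10.5%, with knockout above for 8 and below for 2, against 14.8% of all genes, of which 8.42% above and 6.36% below. The median difference was 0.06 for members and 0.03 for all genes. The 9 hepatocyte markers were all higher in the mean of knockout livers. For 8 of the 9, every knockout array lay above every control array, against 8.42% of all genes. In limma 4 of the 9 had an unadjusted p under 0.05, and none was called. Kupffer cell markers averaged 9.49 to 9.97 in knockout livers and 9.74 to 10.24 in control livers. The part of either list in the homeobox values was not tested.

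On the probe set brightest in liver, the values of the 5 genes called in F9 cells overlapped between the groups. Meis2 had 6.76, 7.03 and 7.33 in knockout livers, against 7.61, 7.65 and 7.20 in control livers, a difference of -0.45 (95% interval -0.99 to 0.10, limma adjusted p = 0.718). Its 4 probe sets differed by -0.57 to 0.17, and on the one at -0.57 the knockout arrays lay below the control arrays. Zfhx3 had 9.24, 8.95 and 9.11 in knockout livers, against 9.31, 9.38 and 8.95 in control livers, a difference of -0.11 (95% interval -0.55 to 0.33). Both intervals end well below the F9 differences of the same genes. Crxos was read from its other probe set in liver, with 6.81, 6.55 and 6.27 in knockout livers, against 5.68, 5.39 and 6.76 in control livers, a difference of 0.60 (95% interval -0.39 to 1.59). The probe set that fell in F9 cells was dim in liver, averaging 2.92 in knockout livers and 1.48 in control livers. There the lowest knockout array, at 1.98, lay just above the highest control array, at 1.97, and the means differed by 1.44 (95% interval -0.27 to 3.15, limma adjusted p = 0.795 over all probe sets), which is opposite in sign to F9 cells and was not called. Nkx6-3 differed by -0.55 (-1.87 to 0.78) and Gsx2 by 0.14 (-2.75 to 3.03), intervals too wide to show or exclude a change of the size seen in F9 cells.

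Lhx6, a LIM-homeodomain gene of forebrain interneurons, had the smallest p among members in liver. It had 7.32, 7.46 and 7.63 in knockout livers, against 6.53, 6.69 and 6.85 in control livers, with no overlap. The difference was 0.78 (SE 0.16, 95% interval 0.39 to 1.17, limma adjusted p = 0.329), and its second probe set differed by -0.12. Msx3 averaged 4.73 ± 0.26 in knockout livers and 5.48 ± 0.26 in control livers (SD), a difference of -0.75 (limma adjusted p = 0.564). Hoxb9 had 7.02, 6.83 and 6.58 in knockout livers, against 6.24, 5.30 and 5.97 in control livers, a difference of 0.97 (adjusted p = 0.578). Dlx2 differed by 0.83 (adjusted p = 0.594) and Hoxb3 by 0.43 (adjusted p = 0.64). These groups did not overlap either, yet none passed the test.

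The highest and lowest liver differences came from arrays that disagreed within a group. Nkx2-1, a lung and thyroid regulator, had 6.12, 6.21 and 5.95 in knockout livers, against 3.51, 2.68 and 6.44 in control livers, and its difference of 1.88 had a 95% interval of -0.58 to 4.35. Six5 had 3.42, 4.44 and 6.92 in knockout livers, against 5.92, 6.40 and 6.80 in control livers, a difference of -1.45 (-3.76 to 0.86). Nkx6-2 differed by -1.12 (-2.16 to -0.08, limma adjusted p = 0.658), with groups that did not overlap. Other members varied less. Pbx2 had 9.24, 8.98 and 9.48 in knockout livers, against 9.18, 9.07 and 9.27 in control livers, a difference of 0.06 (-0.37 to 0.49). Pknox1, a Meis-related partner of Pbx proteins, had 9.01, 8.98 and 8.97 in knockout livers, against 8.72, 8.09 and 8.67 in control livers, a difference of 0.50 (adjusted p = 0.694), and the mean of its probe sets differed by 0.08. Hoxa5 differed by -0.05 and Hoxb2 by 0.01.

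The width of the intervals set what the liver comparison could show, and the sources of that width were not tested. The median SD over members was 0.531 in knockout livers and 0.578 in control livers, while in F9 it was 0.118 in shSPS1 cells and 0.134 in control cells. The 95% interval of a member reached 1.05 to either side at the median in liver, and more than 1 log2 unit for 50 of 95 members, with Hoxc8 widest at 3.78. In F9 it reached 0.234 at the median and at most 0.508, for Hoxd11. In liver 21 of 95 members had an interval within 1 log2 unit of 0, against 54.2% of all genes, and of the 33 Hox genes 6 did. A 2-fold change in liver was therefore not detectable for most members. The threshold for a call is stricter than these intervals, which are not adjusted over genes. Lhx6, with an interval of 0.39 to 1.17, was not called (limma adjusted p = 0.329).

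**Figure D4:**
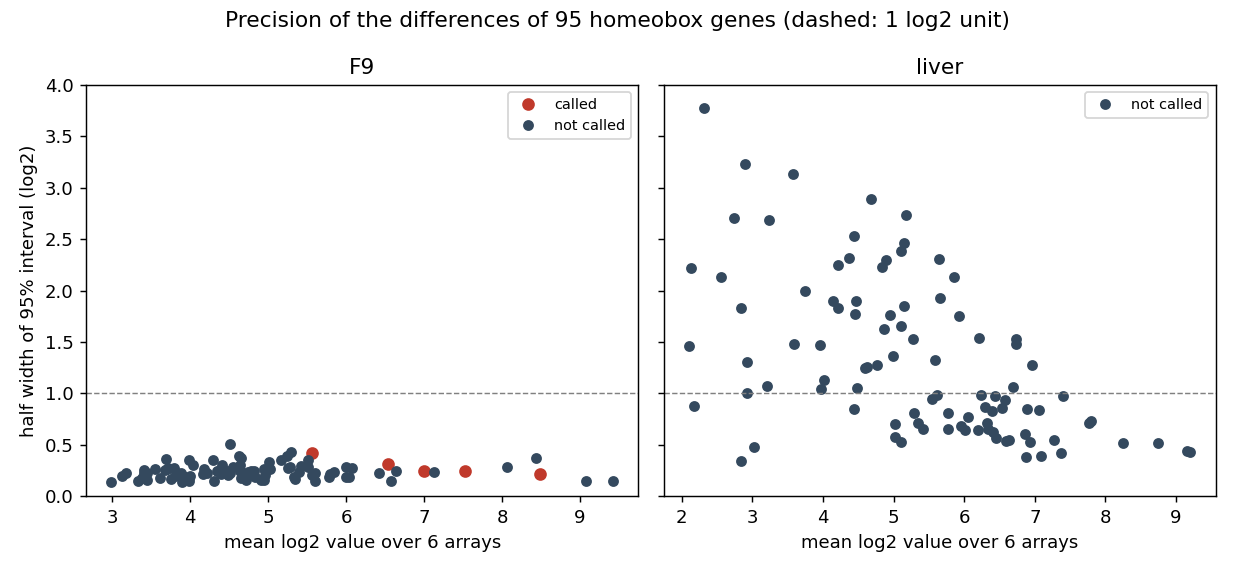
Distance from each member's log2 difference to either end of its 95% interval, against its mean log2 signal over 6 arrays, in F9 cells and in liver, with called members marked. The widest liver interval reaches 3.78 to either side, while in F9 cells the interval reaches at most 0.508 to either side.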

How the data were processed

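The deposited log2 values, 45101 probe sets on each of 12 arrays, were used as the authors made them. Per the labels' protocols, 100 ng of RNA was labelled with biotin by 3' in vitro transcription. R 3.0.1 and affy 1.38.1 appear in the submitters' processing notes, and the method of normalization is not given in the sources used here. Probe sets were named through the platform annotation: 9211 had no symbol, 932 several, and 34945 were used, 34741 of them matched to RefSeq by Entrez identifier. The brightest probe set stood for each of 18193 genes. lmFit and eBayes of limma 3.58.1, run in R 4.3.3, compared 3 arrays with 3 in each tissue, with Benjamini-Hochberg adjustment over all genes and a threshold of 0.05. The fit was also run on simulated data, drawn as independent normal values for each gene. Such data cannot show the effect of differences that arrays share, and the outcome is not used here. Members, gene lists and tests were chosen with earlier results of these data known. Genes were named if called, among the 10 highest or lowest differences or the 15 brightest, brightest of a family, or among Sephs1, the Meis, Pbx and Pknox genes, Crxos, Gsx2, Zfhx3 and Nkx6-3. Gsx1, Crx, Six4's relatives, the Nkx6-3 and Cdx relatives and the marker genes named were chosen after their values were seen. Alternatives covered normalization, filters, probe set choice, array weights, variance model, threshold, each array left out and a replicate block. The number of arrays limits the precision.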

Additional observations from a re-analysis of the deposited data

Results flagged for a closer look

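The change of Meis2 differed between F9 cells and liver. In 1 limma fit of all 12 arrays, chosen after seeing the data, the F9 difference (2.11 for shSPS1 minus control) exceeded the liver difference (-0.45 for knockout minus control) by 2.56 on the log2 scale (SE 0.30, adjusted p = 0.0076 over all genes), on 1 probe set read in both tissues. The fit weighted the arrays by tissue (3.29 for F9 and 0.304 for liver), and its SE depends on these weights. All 3 shSPS1 arrays lay above all 3 F9 control arrays, while the liver groups overlapped. Meis2 was the only one of the 95 members whose difference passed, each read on its probe set brightest over the 12 arrays, and 89 of 18193 genes (0.489%) did. Zfhx3 followed at 1.42 (SE 0.28, adjusted p = 0.0639), with Gsx2 at 1.08 (adjusted p = 0.782) and Nkx6-3 at -1.15 (adjusted p = 0.506). Crxos stood at -0.61 (adjusted p = 0.564), read on the probe set that differed by -0.01 in F9 cells. The Crxos probe set that fell in F9 cells was not in this fit, so its tissue difference was not tested. Sephs1 was lower by 2.20 in F9 cells labelled shSPS1 but not lower in livers labelled knockout (0.19, adjusted p = 0.789), and the 2 comparisons also differ in cell type, strain and method, which cannot be told apart. Groups of 3 arrays were not searched for outlying samples.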

How the results depend on the processing

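In F9 cells Meis2, Crxos, Zfhx3 and Nkx6-3 stayed called in all 16 alternatives and Gsx2 in the 15 that tested it (highest adjusted p 0.0447); it was left out by the filter on the dimmest 50% of genes, which kept 12 members and called 4. Their log2 differences ranged from 1.75 to 2.21 for Meis2, -2.22 to -1.05 for Crxos (-1.05 as the mean of its probe sets), 1.14 to 1.41 for Zfhx3, -1.86 to -1.61 for Nkx6-3 and 1.03 to 1.41 for Gsx2. The number of members called in F9 was 8 with array weights, of which 5 were lower, 7 after quantile normalization, of which 4 were lower, and 7 at an adjusted p under 0.1, of which 4 were lower. The cause of these additions was not tested, apart from the wider threshold. Leaving out each array in turn gave 5 to 6 members called, with 3 higher and 2 to 3 lower. Lhx3 passed with quantile normalization, the filter on the dimmest 25% of genes, an intensity trend with a robust prior, and array weights (lowest adjusted p 0.0256). In liver 0 members were called under every alternative, with 7 at an unadjusted p under 0.05 in limma.

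Replicate numbers did not pair the samples: deviations of same-numbered arrays correlated at -0.22, 0.01 and -0.15 in F9. With the replicate number as a block, 5 members were called in F9 (5.26%, against 3.64% of all genes) and 0 in liver, and no member's call changed. Over all genes, the F9 count of 1310 became 662 with the block, 524 to 1452 without 1 array (under 1310 by over 1.5 times without each array other than control replicate 1), 2285 with array weights, 486 at an adjusted p under 0.01 and 1993 at 0.1, and the liver count of 8 ran from 0 to 89.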

Other observations

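3 probe sets that name a member together with a second Hox gene were left out of the comparisons. In F9 cells the probe set shared by Hoxb8 and Hoxb7 differed by 0.09 and the pair shared by Hoxd4 and Hoxd3 by 0.14 and -0.08, none of them called. In liver they differed by -2.12, 1.19 and 0.03, none of them called, with a 95% interval of -4.33 to 0.09 for the first.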
